A study of Rattus norvegicus with 3 samples.

Results

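The natriuretic peptides and their receptors were followed across 3 Affymetrix rat arrays of cultured neonatal ventricular myocytes. The members were Nppa, Nppb, Npr1, Npr2 and Npr3, each read by 1 probe set that the platform annotation assigns to that symbol alone, so 5 of the 15923 probe sets and 5 of the 10411 genes with 1 symbol were described. One array held RNA from myocytes grown for 48 h with 20 µM phenylephrine, which activates α1-adrenergic receptors and is a common stimulus for myocyte growth. Another held RNA from myocytes grown for 48 h with 1 µM PAMH, a compound that the submitters' keywords place with 5-hydroxytryptamine and pyridine. The third held RNA from unstimulated myocytes grown for the same time. All 3 cultures were primary ventricular cells of newborn rats. The labels used here do not give the number of animals, the cell purity or the vehicle. Each condition had 1 array, so no value below has an SD, a test or a replicate check.

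Nppa encodes atrial natriuretic peptide and Nppb encodes B-type natriuretic peptide, hormones that the heart releases as precursors to lower blood volume and pressure. Both act on natriuretic peptide receptor 1 (Npr1), a membrane guanylyl cyclase that makes cyclic GMP and so activates protein kinase G. Natriuretic peptide receptor 2 (Npr2) is the guanylyl cyclase that answers mainly to C-type natriuretic peptide, and natriuretic peptide receptor 3 (Npr3) binds all of these peptides, has no cyclase domain and clears them. Ventricular muscle of the fetus makes much Nppa, the gene becomes largely atrial after birth, and a growth stimulus to ventricular myocytes brings both peptide genes up again. For that reason the pair is a standard readout of hypertrophy in this culture.

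Nppa and Nppb are neighbours on rat chromosome 5, on the same strand, and no protein-coding gene lies between them in the current rat gene table. Their promoters are shown because both genes were higher on both treated arrays. The 250 bases before each RefSeq start site are given 5′ to 3′ in the GRCr8 build, at chr5:163711934-163712183 (plus strand) for Nppa and chr5:163699758-163700007 (plus strand) for Nppb. Capitals mark the letters of the GATA, NKX2-5, M-CAT and TATA motifs on either strand.
Nppa: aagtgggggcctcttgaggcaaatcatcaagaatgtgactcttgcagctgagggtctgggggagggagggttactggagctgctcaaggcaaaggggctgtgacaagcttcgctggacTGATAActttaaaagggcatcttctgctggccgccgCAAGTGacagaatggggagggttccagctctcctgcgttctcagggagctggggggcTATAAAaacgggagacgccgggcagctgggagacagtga
Nppb: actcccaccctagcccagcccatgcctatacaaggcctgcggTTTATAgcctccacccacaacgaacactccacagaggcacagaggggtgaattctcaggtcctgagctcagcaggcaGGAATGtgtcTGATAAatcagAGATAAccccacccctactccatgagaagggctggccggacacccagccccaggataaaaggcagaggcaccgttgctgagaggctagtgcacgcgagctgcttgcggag

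The motifs searched on both strands were the GATA site as AGATAA or TGATAA, the NKX2-5 core as CAAGTG, AP-1 as TGANTCA, M-CAT as CATTCC, the E-box as CANNTG, the GC box as GGGCGG, the TATA box as TATAAA and the CArG box. Nppa held TGATAA 132 to 127 bases before the start site, and Nppb held TGATAA 121 to 116 bases and AGATAA 110 to 105 bases before it. At least 1 of these GATA forms was present in 16.9% of 33469 rat promoters of the same length. GATA sites are bound by the cardiac factor GATA4, which is known to drive both genes. The Nppa window also held CAAGTG 96 to 91 bases before the start site, a match found in 11.7% of promoters that overlaps 1 of its 3 E-box matches, and TATAAA 39 to 34 bases before it, found in 12.9%. Nppb held CATTCC on the minus strand (printed as GGAATG) 131 to 126 bases before the start site, a match found in 12.1% of promoters. Its TATAAA match was also on the minus strand, 208 to 203 bases before the start site. The AP-1, GC box and CArG letters, found in 6.34%, 30.5% and 1.5% of promoters, were in neither window, and the E-box letters, found in 65.5%, were in that of Nppa and not in that of Nppb. These matches describe letters and were not tested as binding sites.

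Both peptide genes were at the top of the intensity range of these arrays and were higher with either compound. Nppb, which had the larger ratio, was 3.99-fold higher with phenylephrine and 4.57-fold higher with PAMH than in unstimulated myocytes. The corresponding Nppa values were 2.26-fold and 2.61-fold. The 3 receptor genes lay at or below the level taken here as the floor of measurement, an intensity of 76.0, apart from Npr2 on the phenylephrine array. A signal below this floor, which is percentile 40 of all signals after each array was scaled to the same median, was given no ratio.

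The deposited intensity of Nppa was 16601 with phenylephrine and 18780 with PAMH, against 8022 without stimulus. Scaled, it was 16987 with phenylephrine and 19589 with PAMH, against 7516 without stimulus. Its probe set had the highest value of all non-control probe sets on both treated arrays and rank 37 from the top on the unstimulated array. The brightness of a probe set depends on its probes as well as on its RNA, and saturation marks were not used here, so the rank says where in the scanner's range the value fell and not how abundant the transcript was. The log2 ratio was 1.18 with phenylephrine and 1.38 with PAMH. These placed Nppa at rank 114 from the top of 6571 genes measured with phenylephrine and at rank 45 of 6549 measured with PAMH.

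For Nppb the deposited intensity was 12579 with phenylephrine and 14145 with PAMH, against 3444 without stimulus. Scaled, it was 12872 with phenylephrine and 14755 with PAMH, against 3227 without stimulus, so both treated arrays lay far above the unstimulated one. Among all non-control probe sets its rank was 7 with phenylephrine, 9 with PAMH and 224 without stimulus. The log2 ratio was 2.0 with phenylephrine, rank 17 from the top of the measured genes, and 2.19 with PAMH, rank 5. At least 2-fold higher values were seen in 2.62% of all measured genes with phenylephrine and in 2.05% with PAMH, and in 2 of the 2 members that could be measured in each comparison.

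**Figure D1:**
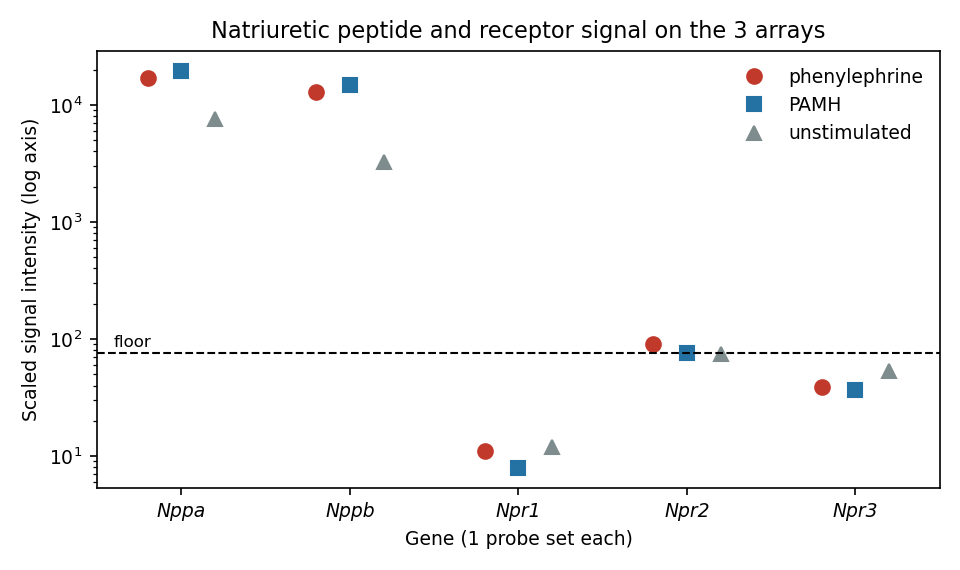
Scaled signal intensity (log axis) of the 5 genes on the phenylephrine (circles), PAMH (squares) and unstimulated (triangles) arrays, 1 point per array, with the floor of 76.0 as a dashed line. Nppa and Nppb are far above it on every array and higher on both treated arrays, whereas Npr1 and Npr3 are below the floor on all 3 and Npr2 is near it.

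Bright genes as a class had positive ratios on the treated arrays after median scaling, which bears on both peptides. Part of this comes from the scaling itself. The deposited medians had log2 shifts of -0.13 with phenylephrine and -0.15 with PAMH from the unstimulated one, and equalizing them raised every ratio by that amount. In the brightest 10th of measured genes the median log2 ratio was 0.24 over 657 genes with phenylephrine and 0.32 over 655 genes with PAMH, while over all measured genes it was 0.07 with phenylephrine and 0.10 with PAMH. In this bright class 7.46% of genes passed 2-fold upward with phenylephrine and 7.33% with PAMH. Nppb ranked 6 from the top within the class with phenylephrine and 2 with PAMH, and its log2 ratio exceeded the class median by 1.76 with phenylephrine and 1.87 with PAMH. Nppa ranked 39 with phenylephrine and 20 with PAMH, and exceeded the median by 0.94 and 1.06 in the same order. Quantile and cyclic loess normalization are built to remove such a dependence on brightness. For Nppa, quantile normalization gave log2 ratios of 0.89 with phenylephrine and 0.89 with PAMH, and cyclic loess gave 0.77 with phenylephrine and 0.85 with PAMH, all below 2-fold. Because Nppa held the top rank on both treated arrays, quantile normalization gives it the same value on both, so its ratios of 0.89 are not separate results. For Nppb, quantile normalization gave 1.76 with phenylephrine and 1.69 with PAMH, and cyclic loess gave 1.63 with phenylephrine and 1.72 with PAMH, all above 2-fold.

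**Figure D2:**
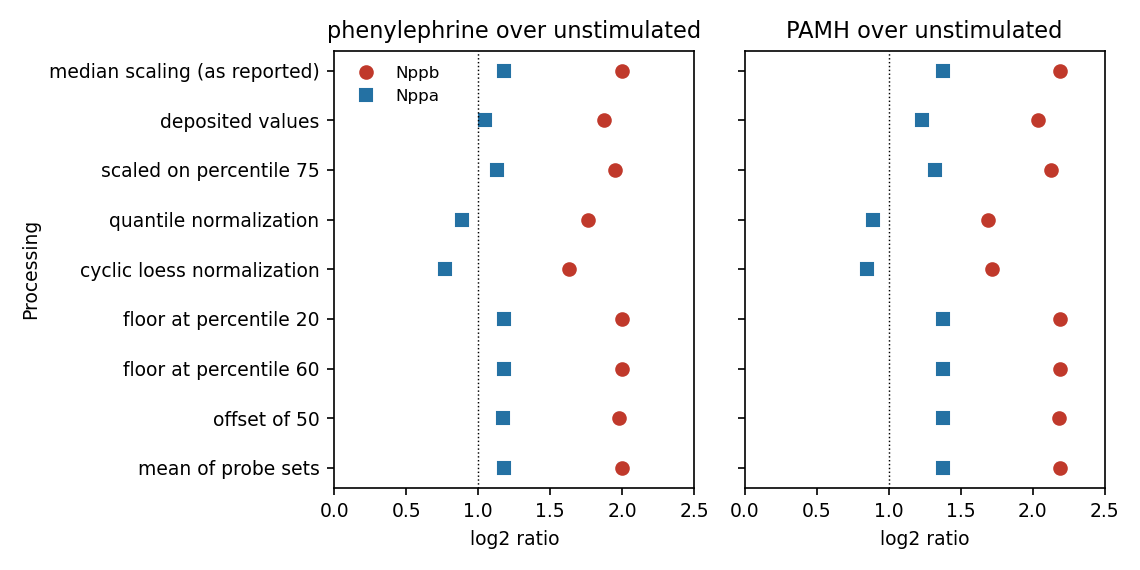
Log2 ratios of Nppb (circles) and Nppa (squares) against the unstimulated array under the reported median scaling and 8 alternatives, for phenylephrine (left) and PAMH (right), with a dotted line at 2-fold. Nppb is to the right of the line in every row, from 1.63 to 2.19, and Nppa is left of it after quantile and cyclic loess normalization.

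The ratio of Nppb exceeded that of Nppa by 0.82 on the log2 scale with phenylephrine, a factor of 1.76, and by 0.81 with PAMH, a factor of 1.75. Multiplying a whole array by 1 factor leaves this difference as it is, and across the alternatives it lay between 0.81 and 0.87 with phenylephrine and between 0.80 and 0.87 with PAMH. As a technical yardstick, probe sets of the same gene differed in their log2 ratio with an SD of 0.27 over 864 genes for phenylephrine and 0.29 over 867 genes for PAMH, a spread that holds no variation between cultures. Both comparisons use the same unstimulated array, so a deviation of that array would enter both differences. Nppa had the highest signal of both treated arrays, and whether its signal was compressed at the top of the scanner's range, which would lower its ratio and enlarge this difference, was not tested.

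Phenylephrine was used at 20 µM and PAMH at 1 µM, so the compounds were not compared at equal dose and their values are given as a description. On the PAMH array the log2 ratio to the phenylephrine array was 0.21 for Nppa and 0.20 for Nppb, within the SD of 0.23 between probe sets of the same gene in that comparison. These values had rank 1579 and 1652 from the top of 6593 measured genes, whose median was 0.04, and of these 0.197% were at least 2-fold higher with PAMH. After quantile normalization the ratio was 0.00 for Nppa, which held the top rank on both arrays and is set equal by that method, and -0.07 for Nppb. The direction between the compounds was therefore not settled for Nppb. The Nppb and Nppa ratios differed by -0.01 on the log2 scale.

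Among the receptors, Npr2 had scaled signals of 91.3 with phenylephrine and 75.9 with PAMH, against 74.4 without stimulus. It was above the floor on the phenylephrine array alone, by a factor of 1.20. Npr3 had signals of 39.0 with phenylephrine and 36.4 with PAMH, against 52.7 in unstimulated cells, all below the floor. Its value was lower on both treated arrays, in a range of intensity where no ratio was taken. Npr1, the receptor through which both peptides signal, was the dimmest member, at 11.1 with phenylephrine, 7.9 with PAMH and 12.0 without stimulus. Between 7.87% and 11.1% of non-control probe sets had a signal at or below that of Npr1 on the same array. A dim probe set can reflect weak probes as well as little RNA, so these values do not show that a receptor transcript was absent, and no order among the receptors is drawn from them.

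Among the measured genes that process, carry or clear the peptides, most values were within 1.5-fold of the unstimulated level. Of 9 such genes listed, 6 were on the arrays under 1 symbol and 3 were measured. Furin, a protease that can cut the B-type precursor, had signals of 245 with phenylephrine and 295 with PAMH, against 260 without stimulus, which are log2 ratios of -0.08 with phenylephrine and 0.18 with PAMH. Pcsk6, a related proprotein convertase, was the 1 gene of 3 past 1.5-fold, with a log2 ratio of 0.67 with phenylephrine (0.54 on the deposited values, below 1.5-fold) and 0.29 with PAMH. Over all measured genes, 8.90% were at least 1.5-fold higher and 4.54% lower with phenylephrine, and 9.31% higher and 4.17% lower with PAMH. Ide, the insulin-degrading enzyme that also cuts atrial natriuretic peptide, had -0.22 with phenylephrine and 0.09 with PAMH. Its other probe sets had -0.38 and -0.10 with phenylephrine and -0.27 and 0.02 with PAMH. Mme, which encodes the peptide-degrading protease neprilysin, and Nppc, which encodes C-type natriuretic peptide, were below the floor on all 3 arrays. Corin, the protease that activates the atrial precursor, was not analysed here.

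Of the other enzymes that make cyclic GMP, 2 of 11 listed guanylyl cyclase and nitric oxide synthase genes were measured. These were Gucy1a1 and Gucy1b1, the subunits of the soluble cyclase that nitric oxide activates. Gucy1a1 had a signal of 298 with phenylephrine and 153 with PAMH, against 196 without stimulus. Its log2 ratio was thus 0.60 with phenylephrine, 0.48 on the deposited values, and -0.36 with PAMH, where a second probe set had 0.27. Gucy1b1 had 0.37 with phenylephrine and -0.03 with PAMH. The inducible nitric oxide synthase gene Nos2 was above the floor on the PAMH array alone, at 128, with 23.1 with phenylephrine and 75.7 without stimulus.

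The list of cyclic GMP-dependent kinases and proteins that they phosphorylate had its median log2 ratio at 0.23 over 12 measured genes with phenylephrine and at 0.25 over 11 with PAMH, against 0.07 (phenylephrine) and 0.10 (PAMH) over all measured genes. With phenylephrine 3 genes passed 1.5-fold upward and 0 downward, and with PAMH the numbers were 2 and 0. Over all measured genes the share past 1.5-fold upward was 8.90% with phenylephrine and 9.31% with PAMH. After quantile normalization the list median was 0.11 with phenylephrine and 0.10 with PAMH, and after cyclic loess it was 0.12 with phenylephrine and 0.11 with PAMH. With PAMH 1 gene of the list passed 1.5-fold under each of the 4 other scalings. Vasp, an actin regulator and classic substrate of protein kinase G, had log2 ratios of 0.83 with phenylephrine and 0.39 with PAMH. Rgs2, which shortens Gq signals and is activated by the same kinase, had 0.93 with phenylephrine and -0.38 with PAMH, and its second probe set had 0.94 with phenylephrine and -0.53 with PAMH. These opposite signs held under each scaling alternative, with 0.81 to 0.89 for phenylephrine and -0.53 to -0.44 for PAMH. Hspb6, a small heat shock protein phosphorylated by cyclic nucleotide-dependent kinases, had 0.65 with phenylephrine (0.39 at the lowest scaling alternative, below 1.5-fold) and 1.15 with PAMH (0.82 at the lowest). Mybpc3, the cardiac myosin-binding protein C, had 0.04 with phenylephrine and 0.61 with PAMH (0.24 at the lowest alternative). Prkg1, the main kinase gene, was not analysed here, and the other kinase gene, Prkg2, was below the floor on every array. The measured genes of this list therefore include no kinase.

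None of the 4 measured genes of the 16 on the phosphodiesterase list, Pde2a, Pde6d, Pde6g and Pde10a, was past 1.5-fold with either compound. Their median log2 ratio was -0.20 with phenylephrine and -0.10 with PAMH. Pde6d and Pde6g encode no catalytic subunit, so these values do not describe cyclic GMP breakdown as a whole. Pde2a, which cyclic GMP stimulates, had signals of 228 with phenylephrine and 244 with PAMH, against 228 without stimulus. Pde5a and Pde3a, the genes for the cyclic GMP-specific and the cyclic GMP-inhibited enzymes, were below the floor on all 3 arrays.

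Most of the measured regulators of the peptide promoters were within 1.5-fold of their unstimulated level by their brightest probe set. Of 41 listed regulators 22 were measured, and the median of their log2 ratios was -0.02 with phenylephrine and 0.15 with PAMH. At 1.5-fold, 8.90% of all measured genes were higher and 4.54% lower with phenylephrine, and 9.31% higher and 4.17% lower with PAMH. Of the 22 regulators, 2 were at least 1.5-fold higher and 1 lower with phenylephrine, and 5 were higher and none lower with PAMH. These numbers depended on the scaling. On the deposited values none was higher and 2 lower (Klf15 and Hopx) with phenylephrine, and 2 higher and 1 lower (Tbx5) with PAMH. Under the 3 other scalings 1 was higher with phenylephrine and 3 with PAMH, and the PAMH median reached -0.03 after quantile normalization. Nkx2-5, the homeodomain factor of the CAAGTG motif above, had signals of 728 with phenylephrine and 797 with PAMH, against 446 without stimulus, or log2 ratios of 0.71 with phenylephrine (0.58 on the deposited values, just below 1.5-fold) and 0.84 with PAMH. Gata4, the zinc finger factor of the GATA motif, had signals of 692 with phenylephrine and 759 with PAMH, against 537 without stimulus, or 0.37 with phenylephrine and 0.50 with PAMH. Its second probe set had larger ratios, 0.86 with phenylephrine and 0.87 with PAMH. Ankrd1, a stretch-responsive nuclear and sarcomeric protein, had 0.56 with phenylephrine (0.16 at the lowest scaling alternative) and 0.86 with PAMH (0.22 at the lowest). Mef2d, a MADS-box factor, had 0.60 with phenylephrine and 0.60 with PAMH, where its second probe set had 0.67 with phenylephrine and -0.13 with PAMH. Hopx, a homeodomain-only protein, had -0.51 with phenylephrine and 0.59 with PAMH, the second only just past 1.5-fold. Rela, a subunit of NF-κB, had 0.23 with phenylephrine and 0.71 with PAMH (0.56 at the lowest alternative, below 1.5-fold). Klf15, known in rat and mouse hearts as a repressor of hypertrophic genes, had a signal of 95.5 with phenylephrine, 194 with PAMH and 206 without stimulus. Its log2 ratio was -1.11 with phenylephrine and -0.09 with PAMH, and at least 2-fold lower values were seen in 0.761% of all measured genes with phenylephrine.

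The genes on either side of the peptide pair had smaller ratios than the pair. Of the 5 protein-coding genes on each side in the rat gene table, 5 of the 10 were measured, and none was 1.5-fold higher or lower with either compound. Clcn6, a chloride transporter gene next to Nppa, had log2 ratios of 0.34 with phenylephrine and 0.23 with PAMH. For 2510039O18Rikl, next to Nppb, they were -0.11 with phenylephrine and -0.05 with PAMH. Mfn2, which encodes the mitochondrial fusion protein mitofusin 2, had 0.02 with phenylephrine and 0.22 with PAMH. Plod1, a lysyl hydroxylase gene, had -0.49 with phenylephrine and 0.01 with PAMH. Agtrap, which encodes a protein bound to the angiotensin receptor, had 0.19 with phenylephrine and 0.38 with PAMH. On the deposited values Plod1 had -0.62 with phenylephrine, past 1.5-fold.

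Secretory granule genes and other vasoactive peptide systems gave few measured values. Pam, whose product is abundant in the membrane of atrial granules, had signals of 4895 with phenylephrine and 4802 with PAMH, against 3728 without stimulus, or log2 ratios of 0.39 with phenylephrine (0.07 at the lowest scaling alternative) and 0.37 with PAMH (-0.03 at the lowest). Vamp1, a vesicle fusion protein gene, had -0.59 with phenylephrine, where another of its probe sets had -0.12, and -0.38 with PAMH. Of 12 granule genes on the arrays 4 were measured with each compound, and the granins Chga and Chgb were below the floor on all 3 arrays. With phenylephrine, 8.90% of all measured genes were at least 1.5-fold higher and 4.54% lower. Edn1, which encodes the vasoconstrictor endothelin 1, was the 1 gene of 6 measured vasoactive genes past 1.5-fold with phenylephrine. Its signal was 170 with phenylephrine and 103 with PAMH, against 99.2 without stimulus, or log2 ratios of 0.77 with phenylephrine and 0.05 with PAMH. Penk, which encodes the opioid precursor proenkephalin, had a larger difference but no ratio under the reported scaling, with signals of 173.6 with phenylephrine and 81.3 with PAMH, against 74.0 without stimulus, just below the floor. On the deposited values Penk was past 2-fold upward with phenylephrine, and Ece1, the endothelin-converting enzyme gene, passed 1.5-fold downward, so 2 of 7 were higher and 1 lower. With PAMH Ece1 was lower too, at -0.56 under the reported scaling and -0.72 at the lowest scaling alternative, past 1.5-fold. Adm, the gene for the vasodilator adrenomedullin, had a signal of 143 without stimulus and was below the floor on both treated arrays, at 68.5 with phenylephrine and 31.6 with PAMH.

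**Figure D3:**
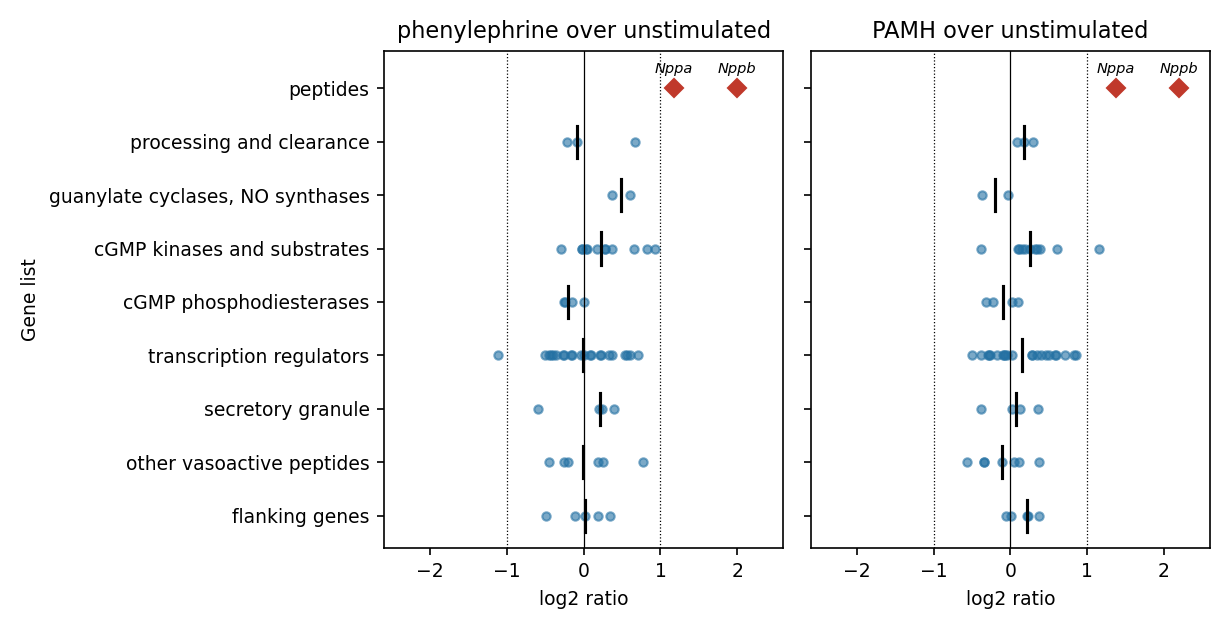
Log2 ratios against the unstimulated array for Nppa and Nppb (diamonds) and for the measured genes of 8 related lists (circles, 1 per gene; vertical bar, median of the list), for phenylephrine (left) and PAMH (right), with dotted lines at 2-fold. Both peptides lie right of every list gene with either compound, in the list called phosphodiesterases all values are within 0.32 of 0, and no flanking gene is beyond 0.50.

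The labelled cell type was checked against marker genes. Of 13 ventricular myocyte markers on the arrays 12 were above the floor on every array, and their summed signal was 85473 with phenylephrine, 99754 with PAMH and 72856 without stimulus. The ventricular factor Irx4 was below the floor throughout. The median log2 ratio of the 12 measured markers was 0.21 with phenylephrine and 0.43 with PAMH, but its sign turned after quantile normalization, to -0.14 with phenylephrine and -0.13 with PAMH, and after cyclic loess, to -0.14 with phenylephrine and -0.03 with PAMH. No direction is therefore drawn for these markers. Relative to the median under the reported scaling Nppa was higher by 0.97 with phenylephrine and 0.95 with PAMH, and Nppb by 1.79 with phenylephrine and 1.76 with PAMH. In such whole cultures, more cells of a type and more RNA per cell cannot be told apart.

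Nppa is also an atrial marker in grown animals, so markers of atrial myocytes were examined. Their summed signal, over 10 genes, was 13044 with phenylephrine, 9818 with PAMH and 7150 without stimulus, of which the light chain gene Myl4, on in fetal ventricle as well as atrium, made up 6697 with phenylephrine, 3520 with PAMH and 1080 without stimulus. Myl7, the other atrial light chain, had log2 ratios of -0.15 with phenylephrine and -0.33 with PAMH. Gja5, the gap junction gene of atrium and conduction system, had -1.27 with phenylephrine and -1.81 with PAMH, but its second probe set had -0.61 with phenylephrine and -0.44 with PAMH. Of the measured atrial markers, 1 of 7 was at least 1.5-fold higher and 2 lower with phenylephrine, and 1 of 6 was higher and 1 lower with PAMH. Nr2f1 and Kcna5 were below the floor on all arrays. Fibroblast markers, over 12 genes, summed to 11689 with phenylephrine, 9768 with PAMH and 13928 without stimulus, and Vim, the brightest of them, had log2 ratios of 0.02 with phenylephrine and -0.06 with PAMH. At least 1.5-fold lower values were seen in 1 of 10 measured fibroblast markers with phenylephrine and in 7 of 10 with PAMH, where 3 were at least 2-fold lower. The phenylephrine number depended on the scaling. It was 4 on the deposited values, 1 after scaling on percentile 75, 4 after quantile normalization and 3 after cyclic loess. The PAMH numbers in the same order were 7, 7, 8 and 7. Over all measured genes, 4.54% were at least 1.5-fold lower with phenylephrine and 4.17% with PAMH, where 52 of 6549 were at least 2-fold lower. The median log2 ratio of the fibroblast markers was -0.44 with phenylephrine and -0.81 with PAMH, and Postn, which encodes the matrix protein periostin, had -0.46 with phenylephrine and -1.76 with PAMH. By their brightest probe sets most of these markers were thus lower on the PAMH array than without stimulus, although Thy1 had 0.21. With PAMH, second probe sets had -0.04 against -0.64 for Col1a1 and -0.41 against -0.93 for Fbn1. They had -0.12 against -0.28 for Col1a2 and -0.67 against -0.72 for Ddr2. Smooth muscle markers, over 9 genes, summed to 13228 with phenylephrine, 10861 with PAMH and 6151 without stimulus. Of the 7 measured, 5 passed 1.5-fold upward and 0 downward with phenylephrine, and 3 upward and 1 downward with PAMH. The share of all measured genes at least 1.5-fold higher was 8.90% with phenylephrine and 9.31% with PAMH. Under each of the 4 other scalings 2 of these smooth muscle markers passed upward with PAMH. With phenylephrine 5 did so after scaling on percentile 75 and 4 under each of the 3 others. Cnn1, the gene for calponin, had log2 ratios of 2.85 with phenylephrine and 2.48 with PAMH, and Acta2, smooth muscle actin, had 1.29 with phenylephrine and 1.52 with PAMH. Myh11, the smooth muscle myosin heavy chain, had 0.02 with phenylephrine and -0.64 with PAMH, and Rgs5 was below the floor on all arrays. Of 9 endothelial markers on the arrays, 4 were at or above the floor with phenylephrine, 2 with PAMH and 3 without stimulus, and they summed to 757 with phenylephrine, 512 with PAMH and 738 without stimulus. Egfl7 and Esam were above the floor on all arrays, whereas Pecam1, Kdr, Vwf and Flt1 were below it throughout, as was Npr3, which is on that list too. Of 8 macrophage and leukocyte markers, 4 were at or above the floor with phenylephrine, 4 with PAMH and 3 without stimulus, and they summed to 539 with phenylephrine, 603 with PAMH and 497 without stimulus. Aif1, Cd74 and Fcer1g were above the floor on all arrays, and Cd68, Ptprc, Cd14 and Lyz2 were below it on all. Of 3 erythroid markers Slc4a1 was above the floor throughout, at 155 with phenylephrine, 184 with PAMH and 132 without stimulus, Alas2 with phenylephrine alone, at 110, and Hbb on no array. All 6 neuronal and Schwann cell markers on the arrays were below it throughout. The part of these other cells in the peptide ratios was not tested. As a sign of RNA integrity, the actin control signal at the 3′ end was divided by that at the 5′ end, which gave 1.44 with phenylephrine and 1.54 with PAMH, against 1.72 without stimulus. The same ratio for the Gapdh control was 1.07 with phenylephrine and 1.01 with PAMH, against 1.04 without stimulus, and did not set the unstimulated array apart.

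Genes with a pattern most like each peptide were found by the distance between their pairs of log2 ratios, among 4824 other genes above the floor on all 3 arrays and with a mean signal above percentile 60. Nearest to Nppa were Tspan9, a tetraspanin gene (distance 0.085), the transferrin receptor gene Tfrc (0.091), the phosphoglucomutase gene Pgm1 (0.095), Synpo2l of the Z-disc (0.12) and the sarcomeric actin gene Acta1 (0.15). Their log2 ratios were 1.09 to 1.24 with phenylephrine and 1.25 to 1.49 with PAMH. Nearest to Nppb were Enah, which encodes an actin regulator of the same family as Vasp (0.19), Mllt11 (0.20), Akip1, an A-kinase interacting protein gene (0.25), the brain-type creatine kinase gene Ckb (0.42) and Ildr2 (0.42). These had 1.85 to 2.37 with phenylephrine and 1.89 to 2.40 with PAMH. Akip1 was read by 7 probe sets, and the other 3 that could be measured had 1.88 to 2.07 with phenylephrine and 2.03 to 2.22 with PAMH. A second Pgm1 probe set had 1.18 with phenylephrine and 1.30 with PAMH, close to the one used. The second Tfrc probe set had 0.89 with phenylephrine and 1.58 with PAMH, against 1.13 and 1.30 for the one used. The place of Tfrc therefore depended on the probe set. The likeness rests on 3 arrays and 2 ratios that share the unstimulated array, and describes these values alone.

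**Figure D4:**
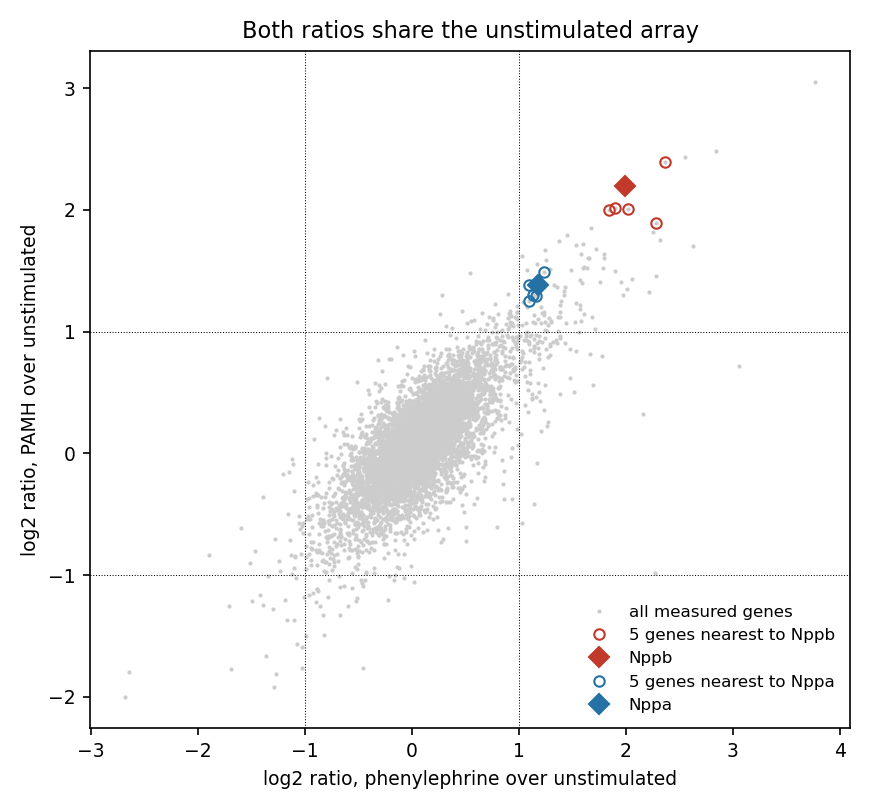
Log2 ratio with phenylephrine (horizontal) against log2 ratio with PAMH (vertical) for genes measured on all arrays (grey points), with Nppb and Nppa as diamonds, the 5 genes nearest to each as open circles and dotted lines at 2-fold. Nppb, at 2.0 and 2.19, lies in a sparse part of the plot, and Nppa, at 1.18 and 1.38, lies at the edge of a denser one.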

How the data were processed

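The table deposited by the authors gives 1 linear signal intensity for each probe set of an array. How these were made is not given in the sources used here, although the mean after trimming 2% at each end is 250.1 on all 3 arrays. The arrays as deposited thus already shared a trimmed mean, and the median scaling used here came on top of that. Of 15866 non-control probe sets, 12783 carry 1 gene symbol (updated by gene identifier for 12748) and 312 several. Promoters and gene order come from RefSeq (GRCr8). The build of the array annotation is not named.

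Each array was multiplied by 1 factor (1.02 for phenylephrine, 1.04 for PAMH, 0.937 for unstimulated) to equal medians. In the deposited table the phenylephrine median had a log2 shift of -0.13 from the unstimulated one and the PAMH median -0.15, and all ratios are relative to these shifts. Ratios were taken from the brightest probe set of a gene, where both arrays were at or above percentile 40. With 1 array per group, the number of arrays limits precision and no test was run, so genes were counted at 2-fold, and list genes at 1.5-fold. The members and lists were chosen with earlier results of these data known. The text names all members, up to 4 genes per list past 1.5-fold, a fixed set of pathway genes and the 5 genes nearest to each peptide. Ide, Pam, Nos2, Adm, Penk, Ece1, Hopx, Mef2d, Tbx5, Pde6d, Pde6g, Pde10a, Prkg2, the flanking genes, the granins and the marker genes were named after their values were seen.

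The alternatives were the deposited values, scaling on percentile 75, quantile and cyclic loess normalization, floors at percentiles 20 and 60, an offset of 50 and the mean of probe sets. Python 3.11.15, numpy 2.4.6, pandas 2.3.3, R 4.3.3 and limma 3.58.1 were used.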

Additional observations from a re-analysis of the deposited data

How the results depend on the processing

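Both peptides were higher than without stimulus under each of the 8 alternatives with either compound, from 0.77 to 1.18 (phenylephrine) and 0.85 to 1.38 (PAMH) on the log2 scale for Nppa, and from 1.63 to 2.0 (phenylephrine) and 1.69 to 2.19 (PAMH) for Nppb. No alternative gave a higher value than the reported median scaling, so the reported ratios lay at the upper end. Of 114 alternative values, 87 stayed within the SD between probe sets of a gene, or for counts within 1.5 times, 27 moved further, and no value past 2-fold changed its sign. Nppa moved to 0.89 (phenylephrine) and 0.89 (PAMH) after quantile and to 0.77 (phenylephrine) and 0.85 (PAMH) after cyclic loess normalization. Nppb moved to 1.63 (phenylephrine) and 1.72 (PAMH) after cyclic loess, to 1.69 (PAMH) after quantile normalization, and to -0.07 for PAMH over phenylephrine after quantile normalization; the cause was not tested. With a floor at percentile 20, Npr2 had log2 ratios of 0.30 (phenylephrine) and 0.03 (PAMH), Npr3 had -0.44 (phenylephrine) and -0.54 (PAMH), and Npr1 still had none. Against the unstimulated array Npr2 also had a ratio with phenylephrine on the deposited values (0.17) and after scaling on percentile 75 (0.25), and for PAMH over phenylephrine it had -0.25 after quantile normalization, -0.27 after cyclic loess and -0.27 with the floor at percentile 20, where Npr3 had -0.10. Under the remaining settings no receptor gave a ratio.

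The numbers of genes past 2-fold depended on the floor and the scaling. With phenylephrine, 172 genes were higher and 50 lower; the floor at percentile 20 gave 259 and 100, the floor at percentile 60 gave 21 lower, the deposited values 92 lower and the offset 23 lower. With PAMH, 134 were higher and 52 lower; the floor at percentile 20 gave 204 and 129, the deposited values 75 and 92, quantile normalization 86 higher, cyclic loess 85 higher, the floor at percentile 60 gave 26 lower and the offset 30 lower. For PAMH over phenylephrine, 13 were higher and 24 lower; the floor at percentile 20 gave 54 and 97, that at percentile 60 gave 3 and 11, and the offset 2 and 10. No paired analysis was possible because each group had 1 array.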
